A study of Mus musculus with 30 samples.

Results

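Transcripts of 7 Krüppel-like factor genes, Klf2, Klf3, Klf4, Klf6, Klf7, Klf10 and Klf13, were followed in mouse dendritic cells meeting a mould. The genes were chosen by symbol, as the rows of the deposited count table whose Ensembl identifiers map to these names, 7 of 54532 genes in all. RNA was sequenced from bone marrow cells of wild-type mice (WT) and of Nlrx1-deficient mice (KO), grown for 6 days with GM-CSF, a cytokine that drives myeloid precursors towards dendritic cells. Nlrx1 encodes a NOD-like receptor family protein located at mitochondria. The cells were taken before challenge (0 h) or 3, 6, 9 and 12 h after live spores (conidia) of Aspergillus fumigatus, isolate AF29, were added, with 3 libraries in each of 10 groups. The mouse strain, sex, age and Nlrx1 allele design are not given. It is also unstated if replicate libraries are from different mice or wells, so the p-values reflect the scatter among libraries, part or all of which could be technical. No time-matched cells without conidia are labelled, so time in culture and contact with the fungus cannot be told apart.

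Krüppel-like factors are zinc-finger transcription factors that bind GC-rich and CACCC-type sequences, sites they share with the related Sp factors. Some mainly activate their targets and others recruit corepressors, so members can act in opposite directions on one site. In myeloid cells Klf2 and Klf4 are known to restrain NF-kappaB-driven inflammatory genes, Klf4 also takes part in monocyte differentiation, and Klf6 is known to promote inflammatory gene expression in macrophages. Klf10 was first described as an early gene induced by TGF-beta. Klf3 is a repressor that recruits CtBP corepressors. Klf7 has been studied mainly in neurons and adipocytes, and Klf13 as an activator of the chemokine gene Ccl5 in T cells.

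The 3 proximal promoters printed here belong to the member with the highest level and the largest rise (Klf6) and to the pair whose mean level was lower in KO than in WT at all 5 times (Klf4 and Klf2). Each is the 250 bases before the RefSeq start on GRCm38.p6, read 5′ to 3′ on the gene's own strand, with matches to the CCAAT box (CCAAT), the E-box (CACGTG) and the MEF2 site (CTA and TAG with any 4 bases between) in capitals. The intervals are chr13:5861239-5861488 on the plus strand for Klf6, chr4:55532476-55532725 on the minus strand for Klf4 and chr8:72318812-72319061 on the plus strand for Klf2.
Klf6: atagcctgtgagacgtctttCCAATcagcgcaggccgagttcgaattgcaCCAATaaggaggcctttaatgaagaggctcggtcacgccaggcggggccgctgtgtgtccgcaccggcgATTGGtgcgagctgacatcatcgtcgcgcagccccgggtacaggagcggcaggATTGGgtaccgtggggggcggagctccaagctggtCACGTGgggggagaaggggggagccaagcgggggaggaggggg
Klf4: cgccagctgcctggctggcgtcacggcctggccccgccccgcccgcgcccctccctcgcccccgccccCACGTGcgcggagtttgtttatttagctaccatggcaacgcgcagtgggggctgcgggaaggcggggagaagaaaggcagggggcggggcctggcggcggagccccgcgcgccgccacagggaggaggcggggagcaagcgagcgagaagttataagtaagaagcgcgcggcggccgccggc
Klf2: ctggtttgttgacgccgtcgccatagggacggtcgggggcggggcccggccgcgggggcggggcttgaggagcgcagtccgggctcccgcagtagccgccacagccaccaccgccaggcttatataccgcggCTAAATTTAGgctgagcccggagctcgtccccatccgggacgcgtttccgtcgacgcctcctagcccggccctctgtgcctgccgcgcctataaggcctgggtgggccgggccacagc
The Klf6 promoter held 4 CCAAT boxes counted over both strands, at 230, 200, 131 and 78 bases before the start, and 0.84% of 32851 RefSeq promoters of this length held 4 or more. It also held an E-box, a motif found in 6.02% of promoters, and so did the Klf4 promoter. A MEF2 match stood 118 bases before the Klf2 start, against 3.2% of promoters with such a match. GC boxes (GGGCGG, both strands) numbered 1 in Klf6, 4 in Klf4 and 2 in Klf2. Of all promoters 32.7% held at least 1, 16.7% at least 2 and 4.09% at least 4. None of the 3 held a match to the NF-kappaB motif searched (GGG and TTTCC with any 2 bases between, in 1.41% of promoters), to the AP-1 site TGANTCA (6.75%) or to the CACCC-type box CCACACCC (3.2%). A match is a description of these letters only, and its absence says nothing of the factor.

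Transcripts of early-response genes often carry AU-rich elements in the 3′ untranslated region, which mark them for rapid decay. The longest annotated 3′ untranslated region of Klf6 held the element TATTTAT at 2 places, shown here in capitals within 23 bases.
Klf6, upstream site: acgtctctTATTTATgccttgag
Klf6, downstream site: accggctgTATTTATtatgtaac
Klf2, Klf7 and Klf10 held 1 such element each, and Klf3, Klf4 and Klf13 held 0. Of 19938 genes with an annotated 3′ untranslated region, those with very short regions left out, 29% held at least 1 and 11% held 2 or more. The Klf6 region was 3111 bases long, and among 2202 genes with a region of similar length 23.3% held 2 or more.

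Library totals lay between 1722384 and 3509429 counts (median 2492886). The targeted gene Nlrx1 (chr9:44252717-44268599, minus strand) was counted at 5.26 to 14 CPM (counts per 1000000 of the scaled library total) in WT and at 0 to 5.68 in KO, a mean difference of -1.87 ± 0.30 on the log2 scale (adjusted p = 1.71e-05). Its 3 KO libraries were lower than the 3 WT libraries at every time, and counts over the whole gene do not show which part was removed. Of 12 dendritic cell markers 11 were expressed above the filter on low counts, with Flt3 below it. The summed level of the 12 ran from 4060 to 5950 CPM in WT and from 4800 to 6140 in KO. The cultures also carried transcripts of 10 of 10 macrophage markers, at a summed 2510 to 3500 CPM in WT and 2030 to 2620 in KO. Neutrophil markers summed to 378 to 978 CPM in WT and 190 to 544 in KO. No marker of T and NK cells or of B cells passed the filter, and Trbc1, Trbc2, Hbb-bt and Hba-a2 were at 0 in all libraries. In such bulk samples fewer cells of a type and less RNA per cell cannot be told apart.

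All 7 members passed the filter, but their levels were far apart. Per kilobase of annotated exons, Klf6 (chr13:5861482-5870394, plus strand) had a mean of 82.9 CPM over the 30 libraries, with a range of 64.5 to 113. Klf10 (chr15:38291463-38300706, minus strand) was next at a mean of 25.1 and Klf13 (chr7:63886351-63938915, minus strand) followed at 11.8. Klf7 (chr1:64029447-64122282, minus strand) stood close to Klf13, at 10.4. Klf4 (chr4:55527143-55532466, minus strand), Klf3 (chr5:64803388-64832901, plus strand) and Klf2 (chr8:72319033-72321656, plus strand) were lowest at means of 5.02, 4.41 and 4.29. Coordinates are those of GENCODE M21 on GRCm38. In WT at 0 h the level per kilobase was 65.8 ± 1.07 (SD, n = 3) for Klf6, 24.4 ± 1.28 for Klf10, 12.7 ± 0.259 for Klf13, 11.9 ± 0.444 for Klf7, 6.46 ± 0.715 for Klf4, 4.38 ± 0.414 for Klf3 and 4.23 ± 1.06 for Klf2. In that order Klf6, Klf10, the pair of Klf13 and Klf7, and Klf4 were separated by more than their SDs, while Klf3 and Klf2 were not. The place of Klf3 depends on the exon length used: with its longest coding transcript its mean over all libraries was 9.5 per kilobase, between Klf7 at 11 and Klf4 at 5.05.

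**Figure D1:**
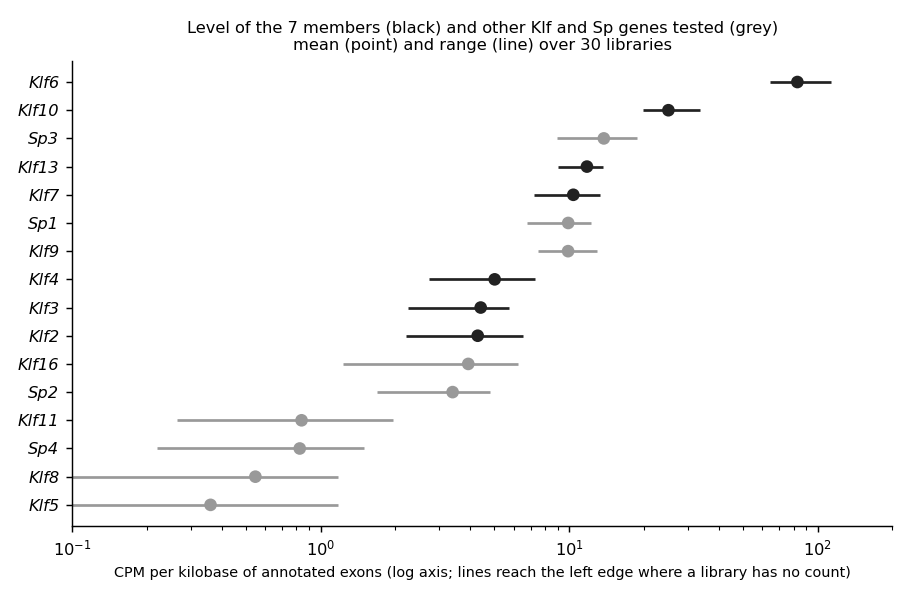
Level of the 7 members (black) and of the 9 other Klf and Sp genes that passed the filter (grey), as CPM per kilobase of annotated exons on a log axis. Points are means and lines are the ranges over 30 libraries. Klf6 has the highest level of the 16 genes, with a mean of 82.9.

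Among 19 other genes of the family, 9 passed the filter. Sp3, Sp1 and Klf9 had means of 13.8, 9.92 and 9.91 CPM per kilobase. Those of Sp1 and Klf9 lie in the range of Klf13 and Klf7 over the libraries, and that of Sp3 lies just above both. Klf16 and Sp2 had means of 3.93 and 3.4. Klf11, Sp4, Klf8 and Klf5 had means under 1.

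Over the time course Klf6 rose in steps to its highest level at 12 h, Klf7 fell until 9 h and came back at 12 h, and Klf10 rose late. Over the 8 comparisons of a later time with 0 h, 15 of 56 member tests passed (edgeR's quasi-likelihood test, adjusted p under 0.05 over 12393 genes). In WT 1 of 7 members passed at 3 h, where 1.02% of all genes did. The count was 2 of 7 at each of 6, 9 and 12 h, beside 5.96%, 10.4% and 18.1% of all genes. In KO 2 of 7 passed at each of 3, 6, 9 and 12 h, beside 1.22%, 5.91%, 10.9% and 14.7%. Klf6 and Klf7 account for 13 of the 15 calls, Klf10 in WT and Klf3 in KO at 12 h for the others. The median log2 change of the 7 members was 0.03 in WT and 0.06 in KO at 12 h, beside 0.0033 and -0.0051 over all genes.

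**Figure D2:**
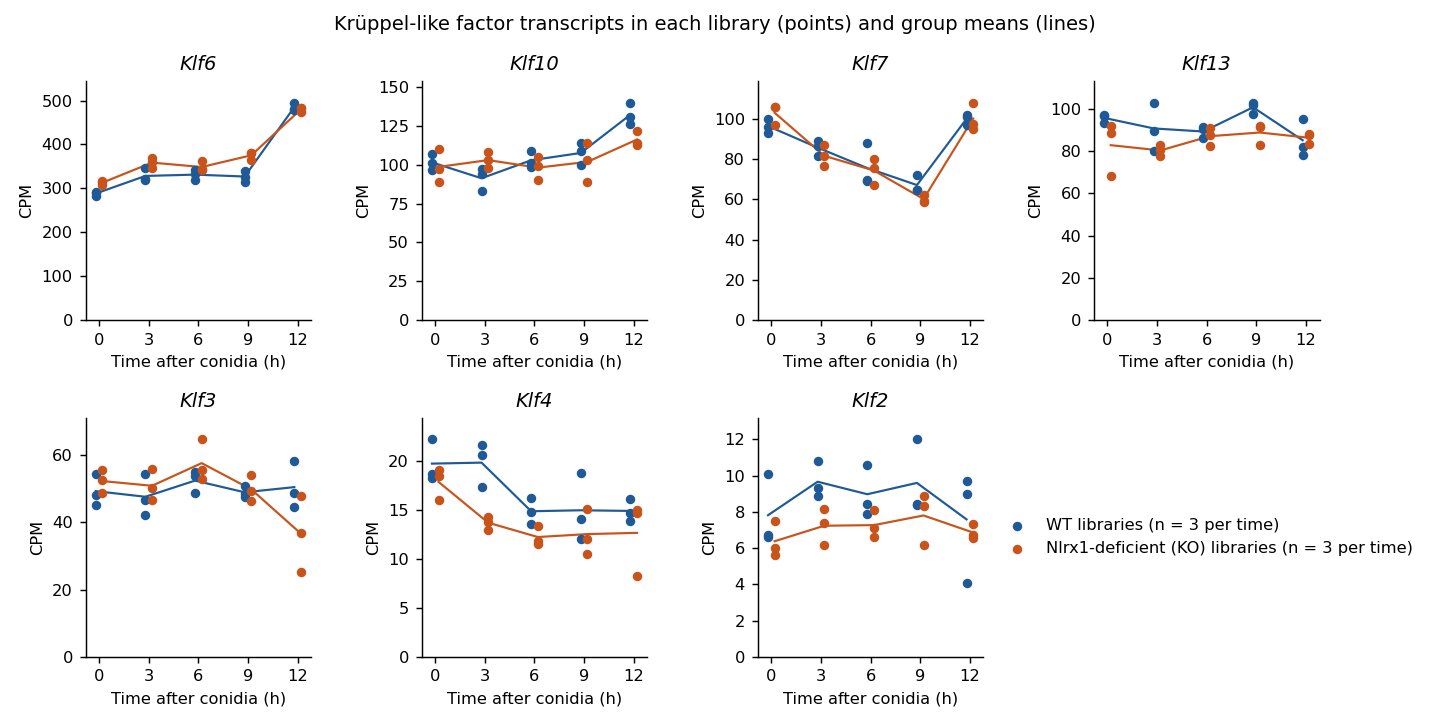
CPM of each member in every library (points) against time after conidia in hours, with group means joined by lines, in WT (blue) and Nlrx1-deficient cells (orange), 3 libraries per group. Klf6 lies between 475 and 495 in all 6 libraries at 12 h, and Klf7 dips to between 58.8 and 72.1 at 9 h.

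Klf6 was at 290, 283 and 292 CPM in the WT libraries at 0 h and at 481, 479 and 495 at 12 h. In KO it was at 307, 317 and 315 at 0 h and at 483, 475 and 482 at 12 h. The 12 h libraries lay far above the 0 h libraries in both genotypes, with no overlap. All genes tested separated in this way in 36.5% of cases in WT and 30.4% in KO. The rise from 0 h was 0.75 ± 0.04 on the log2 scale in WT (1.68-fold, adjusted p = 2.51e-13) and 0.62 ± 0.04 in KO (1.53-fold, adjusted p = 1.28e-11).

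Between these times Klf6 stayed on a plateau. It was at 321, 318 and 346 CPM in WT at 3 h, at 333, 342 and 319 at 6 h and at 340, 326 and 315 at 9 h. In KO it was at 370, 347 and 359 at 3 h, at 341, 343 and 362 at 6 h and at 381, 381 and 364 at 9 h. Every one of these libraries was above those of its own genotype at 0 h, a separation seen in 15.3%, 23.2% and 28.6% of all genes at 3, 6 and 9 h in WT and in 14.5%, 22.7% and 27.4% in KO. The plateau lay 0.18 to 0.20 log2 above 0 h in WT and 0.16 to 0.26 in KO, and all 6 comparisons passed. The 3 h calls in both genotypes and the 6 h call in KO were lost with DESeq2 (adjusted p = 0.0999, 0.0505 and 0.0838) and on leaving out single libraries, listed in the closing section. Most of the rise fell in the last interval, at 0.57 ± 0.04 in WT (adjusted p = 1.23e-10) and 0.36 ± 0.04 in KO (adjusted p = 1.13e-06) from 9 to 12 h. The authors' deposited table lists Klf6 at 12 h with a log2 change of 0.75 in WT and 0.62 in KO, and it lists only genes beyond 0.5.

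Klf7 moved the other way. It was at 93.2, 96.1 and 100 CPM in WT at 0 h, at 86.5, 81.6 and 89 at 3 h, at 87.9, 69.1 and 69.7 at 6 h and at 72.1, 64.6 and 64.6 at 9 h. In KO it was at 106, 97.1 and 106 at 0 h, at 86.8, 76.5 and 81.6 at 3 h, at 80.2, 67.2 and 75.6 at 6 h and at 58.8, 59.3 and 62.4 at 9 h. Each later group up to 9 h lay wholly below 0 h in both genotypes. All genes separated from 0 h in 15.3%, 23.2% and 28.6% of cases at 3, 6 and 9 h in WT. The shares in KO were 14.5%, 22.7% and 27.4%. At 9 h the fall was -0.53 ± 0.08 in WT (1.44-fold lower, adjusted p = 6.62e-05) and -0.77 ± 0.09 in KO (1.71-fold lower, adjusted p = 2.43e-07). Falls also passed at 6 h, by -0.35 in WT and -0.47 in KO, and at 3 h in KO, by -0.33. The WT call at 6 h and the KO call at 3 h were each lost in some alternatives. The authors' deposited table lists Klf7 at 9 h with log2 changes of -0.53 in WT and -0.77 in KO.

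By 12 h Klf7 was back at 97.1, 101 and 102 CPM in WT and at 97.6, 108 and 94.9 in KO. These values overlapped those at 0 h, with changes from 0 h of 0.05 ± 0.08 in WT (adjusted p = 0.725) and -0.03 ± 0.08 in KO (adjusted p = 0.947). The step from 9 to 12 h was 0.58 ± 0.08 in WT (adjusted p = 1.59e-05) and 0.74 ± 0.08 in KO (adjusted p = 7.69e-07). In that step 3 of 7 members passed in WT (Klf6, Klf7 and Klf10), where 10.5% of all genes did, and 2 of 7 in KO (Klf6 and Klf7), where 4.49% did. From 3 to 6 h and from 6 to 9 h, 0 of 7 passed in either genotype, against 2 and 0 at an unadjusted p under 0.05 in WT and 0 and 2 in KO. All genes passed there in 1.89% and 1.36% of cases in WT and 1.46% and 1.26% in KO. DESeq2 gave 5 member calls over the 6 steps of both genotypes, as edgeR did.

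**Figure D3:**
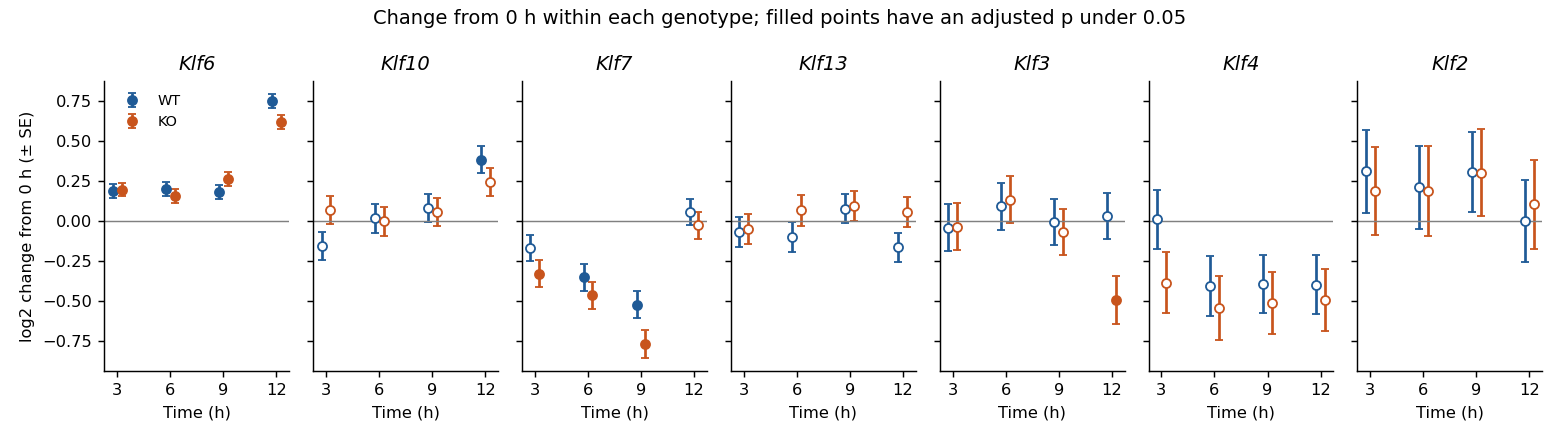
Fitted log2 change from 0 h (± SE) of each member at 3, 6, 9 and 12 h in WT (blue) and Nlrx1-deficient cells (orange), with filled points where the adjusted p was under 0.05. Klf6 is above 0 throughout and reaches 0.75 and 0.62 at 12 h, while Klf7 reaches -0.53 and -0.77 at 9 h and returns to near 0.

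Klf10 rose late and modestly. In WT it was at 96.8, 107 and 101 CPM at 0 h and at 140, 131 and 126 at 12 h. These groups did not overlap, as for 36.5% of all genes. The rise was 0.38 ± 0.09 (1.3-fold, adjusted p = 0.0022), and it was 0.30 ± 0.08 from 9 to 12 h (adjusted p = 0.0209). In KO it was at 110, 88.8 and 97.2 CPM at 0 h and at 113, 122 and 114 at 12 h, a change of 0.24 ± 0.09 that did not pass (adjusted p = 0.0689). The difference between the genotypes in this change was -0.14 ± 0.12 (adjusted p = 0.75), so the rise was not shown to differ between them. Without the first KO library at 0 h, at 110 CPM, the KO change was 0.32 (adjusted p = 0.0265). At 3, 6 and 9 h Klf10 ran from 82.9 to 114 CPM in WT and from 88.8 to 114 in KO, and none of the 6 changes from 0 h passed.

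Klf3, the CtBP-recruiting repressor, was at 42 to 58.1 CPM in all 15 WT libraries. In KO it was at 48.6, 52.5 and 55.6 at 0 h and at 25.3, 47.8 and 36.7 at 12 h. All 3 late KO libraries were below those at 0 h, 1 of them by little, and 30.4% of all genes separated at 12 h in KO. The change in KO was -0.49 ± 0.15 (1.41-fold lower, adjusted p = 0.025), against 0.03 ± 0.14 in WT. The size rests on single libraries: it was -0.29 (adjusted p = 0.184) without the library at 25.3 CPM and -0.77 (adjusted p = 0.000816) without the one at 47.8. The call was also lost when the KO library at 36.7 CPM, or either of those at 52.5 and 55.6 at 0 h, was left out (adjusted p = 0.0655, 0.0672 and 0.0905). The difference between genotypes in the change, -0.52 ± 0.21, did not pass (adjusted p = 0.286). Klf3 shares 404 exonic bases with the opposite-strand gene Gm20033, which had at most 13 counts in a library, and the strand setting of the counting is not stated. Klf7 likewise shares 3196 exonic bases with the opposite-strand gene Gm26649, which had at most 3 counts in a library.

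Klf4 gave no call over time, with its 12 h libraries below those at 0 h. It was at 18.7, 22.2 and 18.3 CPM in WT at 0 h and at 16.1, 13.9 and 14.7 at 12 h. In KO it was at 16, 19.1 and 18.5 at 0 h and at 8.28, 15 and 14.7 at 12 h. The groups did not overlap in either genotype, as for 36.5% of all genes in WT and 30.4% in KO. The changes were -0.40 ± 0.18 in WT (adjusted p = 0.136) and -0.49 ± 0.19 in KO (adjusted p = 0.0904). At 6 and 9 h the changes were -0.41 and -0.40 in WT and -0.54 and -0.52 in KO, with adjusted p from 0.0893 to 0.249. At 3 h Klf4 was at 17.3 to 21.6 CPM in WT, overlapping its 0 h level, and at 13 to 14.3 in KO, below it. In KO 14.5% of all genes separated from 0 h at that time. The difference in the change at 3 h was -0.40 ± 0.27 (adjusted p = 0.984).

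Klf13 and Klf2 gave no call over time. Klf13 ran from 78.3 to 103 CPM in WT and from 68.1 to 92.1 in KO over the 15 libraries of each genotype. Its largest step was from 9 to 12 h in WT, at -0.24 ± 0.09 (adjusted p = 0.0886). Without the WT library at 95.5 CPM at 12 h that step was -0.34 (adjusted p = 0.0296). Klf2 had 10 to 37 counts per library, from 4.09 to 12 CPM in WT and from 5.62 to 8.89 in KO. Its SEs of 0.25 to 0.28 in the comparisons with 0 h mean that changes the size of the Klf6 plateau were not detectable at this depth.

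Beside these changes the summed macrophage markers went from 3340 to 3500 CPM at 0 h to 2510 to 2580 at 12 h in WT, and from 2390 to 2620 to 2030 to 2280 in KO. Of the 10 macrophage markers 6 fell and 1 rose at 12 h in WT, and 5 fell and 3 rose in KO. Summed dendritic cell markers went from 5010 to 5950 CPM at 0 h to 4060 to 4770 at 12 h in WT and from 5480 to 6140 to 5130 to 5410 in KO. Of the 11 tested dendritic cell markers 0 rose and 4 fell at 12 h in WT, and 1 rose and 1 fell in KO. At that time 18.1% of all genes passed in WT and 14.7% in KO. Summed neutrophil markers were highest at 6 h, with medians of 415, 837 and 466 CPM at 0, 6 and 12 h in WT and of 264, 543 and 209 in KO. Summed monocyte markers had medians of 170, 116 and 184 CPM at 0, 9 and 12 h in WT and of 207, 120 and 168 in KO, lowest at 9 h in both genotypes. Summed stromal and endothelial markers were low, with medians of 17 CPM at 0 h and 31.5 at 12 h in WT and of 24.3 and 41.8 in KO. The part of such shifts in the changes of Klf3, Klf4, Klf6, Klf7 and Klf10 was not tested.

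Loss of Nlrx1 went with small differences in the members. Averaged over the 5 times, Klf6 was higher in KO and Klf4 and Klf13 were lower, 3 of 7 members, in a comparison where 24.9% of all genes passed. At single times 0 of 7 members passed at 0, 3, 6 and 12 h, where 5.02%, 6.92%, 5.78% and 1.9% of all genes did, and 1 of 7 passed at 9 h, beside 5.06%. At an unadjusted p under 0.05, 2 members were counted at 0 h, 2 at 3 h, 0 at 6 h and 2 at 12 h. DESeq2 called 1 member over the 5 times, as edgeR did.

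**Figure D4:**
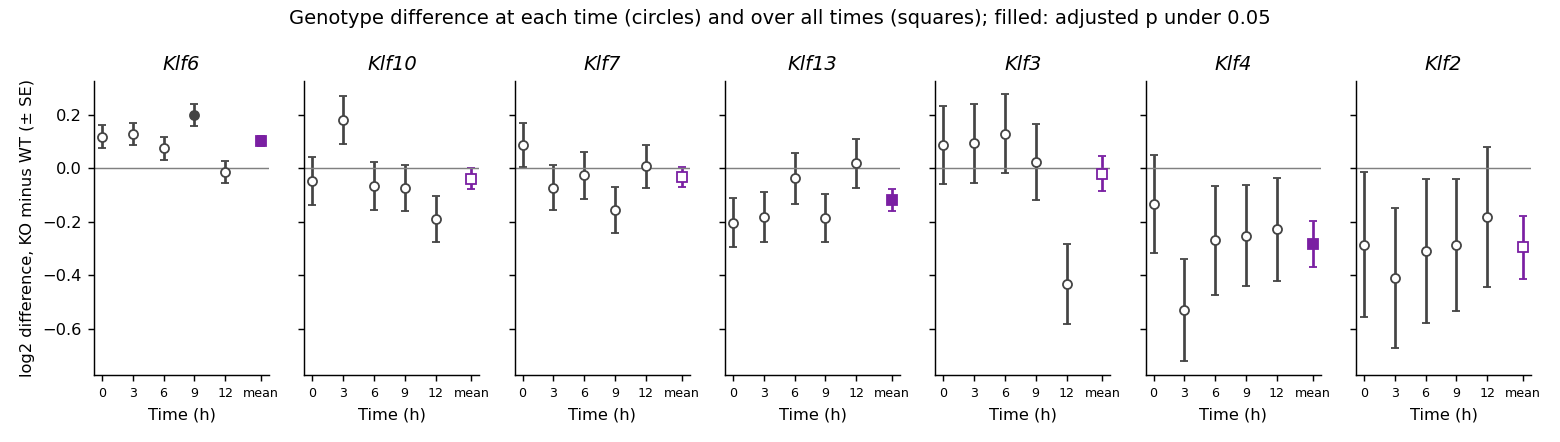
Fitted log2 difference between Nlrx1-deficient and WT cells (KO minus WT, ± SE) for each member at each time (circles) and averaged over the 5 times (squares), with filled symbols where the adjusted p was under 0.05. Klf6 is above 0 from 0 to 9 h and at -0.01 at 12 h, and Klf4 and Klf2 are below 0 at all 5 times.

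The Klf6 difference was 0.12 ± 0.04 at 0 h, 0.13 ± 0.04 at 3 h, 0.08 ± 0.04 at 6 h and 0.20 ± 0.04 at 9 h, and it was -0.01 ± 0.04 at 12 h. At 9 h the KO libraries, at 364 to 381 CPM, lay above the WT libraries, at 315 to 340 (adjusted p = 0.00344), and 24.2% of all genes separated like this. The average over all times was 0.10 ± 0.02 (1.07-fold, adjusted p = 0.000204). Both calls were lost when all genes with any count were kept, which moved the average to 0.05 (adjusted p = 0.37) and the 9 h value to 0.12 (adjusted p = 0.64). The 9 h call was also lost with only the 2 groups compared in the fit (adjusted p = 0.0828). The smaller step of Klf6 from 9 to 12 h in KO, a difference of -0.21 ± 0.06 from WT, did not pass in edgeR (adjusted p = 0.138) and passed with DESeq2 at -0.22 (adjusted p = 0.0356).

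Klf4 had a median of 16.2 CPM in 15 WT libraries, from 12 to 22.2, and of 13.8 in 15 KO libraries, from 8.28 to 19.1. The average difference was -0.28 ± 0.09 (1.22-fold lower, adjusted p = 0.0163), and DESeq2 gave an adjusted p of 0.0587. The group mean was lower in KO at 5 of 5 times, and the gap was widest at 3 h, at -0.53 ± 0.19 (adjusted p = 0.0955). Klf2 was also lower in KO at 5 of 5 times, by -0.30 ± 0.12 on average (adjusted p = 0.0643), and by -0.35 (adjusted p = 0.0204) without the WT library at 4.09 CPM. Klf13 was lower in KO at 4 of 5 times, by -0.12 ± 0.04 on average (1.08-fold lower, adjusted p = 0.0382). That call was lost with DESeq2 (adjusted p = 0.0993) and on leaving out any of 12 single libraries.

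Klf3, Klf7 and Klf10 differed by -0.02 ± 0.07, -0.03 ± 0.04 and -0.04 ± 0.04 on average, and none passed. Over the same average 9 of 10 macrophage markers and 6 of 7 tested neutrophil markers were lower in KO, and 7 of 11 tested dendritic cell markers were higher. In the other direction 1 macrophage marker was higher and 1 dendritic cell marker was lower, in a comparison where 24.9% of all genes passed. The part of these shifts in the lower Klf4 and Klf13 and the higher Klf6 was not tested.

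No member was shown to respond differently over time in KO. In the F test of the 4 differences from 0 h, 0 of 7 members passed in edgeR and in DESeq2, against 1 (Klf6) at an unadjusted p under 0.05 and 0.888% of all genes called. The adjusted p ran from 0.305 for Klf6 to 0.999 for Klf2. Tested one time at a time, 0 of 28 member tests were called in either tool and 3 had an unadjusted p under 0.05 in edgeR. All genes passed there in 0%, 0%, 0.105% and 0.726% of cases at 3, 6, 9 and 12 h. Of the 21 differences in a consecutive step edgeR called 0, with 3 at an unadjusted p under 0.05, and DESeq2 called 1, the Klf6 step above, where edgeR called 0%, 0.0807% and 0.218% of all genes over the 3 steps. Over all comparisons of this report DESeq2 gave no adjusted p for 21 of 196 member tests. Those tests count here as not called.

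Genes around the family were taken from lists of other members, cofactors, upstream regulators and genes linked to the members in other work. Of the 9 other family genes tested, 0 passed in edgeR in any of the 8 comparisons with 0 h, against 8 of 72 tests at an unadjusted p under 0.05. Klf9, a glucocorticoid-induced member, was higher in KO on average, at 0.15 ± 0.05 (adjusted p = 0.0388). It was the only call there, 1 of 9, where 24.9% of all genes passed, so the list gives no result. Its group means ran from 39.4 to 48 CPM in WT and from 44.6 to 54.6 in KO.

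Of 14 cofactors 1 rose and 1 fell at 12 h in WT, where 18.1% of all genes passed, and 1 rose and 0 fell in KO, where 14.7% did. These shares are no higher than over all genes, so the list as a whole gives no result. The riser in both was Sap30, a subunit of the Sin3 histone deacetylase complex, at 0.86 ± 0.12 in WT (adjusted p = 3.48e-06) and 0.87 ± 0.12 in KO (adjusted p = 3.54e-06). Its group mean went from 37.8 to 67.9 CPM in WT and from 38.8 to 71.4 in KO. Ctbp1, a corepressor that Klf3 recruits, fell in WT at 12 h by -0.44 ± 0.13 (adjusted p = 0.0139) and was lower in KO on average, at -0.20 ± 0.06 (adjusted p = 0.012). On that average 0 of the 14 were higher and 2 were lower, a share no higher than the 24.9% of all genes.

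Of 12 genes of the upstream kinases, MEF2 factors and turnover enzymes, 0 rose and 2 fell at 12 h in WT, beside the same 18.1% of all genes, and 0 passed in KO, beside 14.7%, with 1 at an unadjusted p under 0.05. The fallers in WT were Map3k3, at -0.39 ± 0.12 (adjusted p = 0.0216), and the class II deacetylase gene Hdac5, at -0.56 ± 0.18 (adjusted p = 0.0291). Map3k3 and Mapk7 encode kinases of one cascade that is known to induce Klf2 and Klf4 through MEF2 factors. Both were lower in KO on average, Map3k3 by -0.22 ± 0.06 (adjusted p = 0.00417) and Mapk7 by -0.18 ± 0.06 (adjusted p = 0.0399). At 9 h they were lower by -0.50 (adjusted p = 0.00941) and -0.45 (adjusted p = 0.0377), 2 of 12 beside 5.06% of all genes. The ubiquitin ligase gene Wwp1 was higher in KO on average, at 0.23 ± 0.08 (adjusted p = 0.0392). On that average 1 of the 12 was higher and 2 were lower, beside 24.9% of all genes, so the list gives no result there. Map2k5, Mef2a, Mef2c and Mef2d were not called on the average or at 9 h.

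Of 23 tested genes linked to the members, 10 rose and 1 fell at 12 h in WT, and 7 rose and 1 fell in KO, again beside 18.1% and 14.7% of all genes. The median change of the list was 0.15 in WT and 0.17 in KO. The list was written with earlier results of these data known, so its direction is not independent evidence. Ptgs2, the inducible cyclooxygenase gene, rose by 5.40 in WT and 5.83 in KO, Tnf by 3.06 and 3.41, and Il1b by 2.82 and 2.42. Cd14, the lipopolysaccharide coreceptor gene, rose by 0.97 and 1.19, Hif1a by 0.45 and 0.56, and Ccl5 by 1.61 and 2.11, while Tgfb1 fell by 0.47 in WT. S1pr1 and Thbd, genes that Klf2 activates in other cells, did not pass in either genotype at 12 h, with group means of 4.75 to 6.92 CPM for S1pr1 and 2.31 to 4.49 for Thbd. Averaged over time Il1b, Ptgs2, Hif1a and Tnf were higher in KO, and Pparg, Lgals3, Chil3 and Tgfb1 were lower. On this average 4 of the 23 were called higher and 5 lower, beside 24.9% of all genes.

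Likeness to a member was measured as Pearson's r of log2 CPM over the 30 libraries, against 5872 other genes with a mean of at least 20 CPM. These correlations are descriptions, since the points share their time groups and library scaling. Klf6 was most like Inhba (r = 0.972), which encodes the activin A subunit, Rel (r = 0.962), an NF-kappaB subunit gene, and Ifrd1 (r = 0.943). From 0 to 12 h in WT Inhba changed by 2.95 ± 0.08, Rel by 1.48 ± 0.09 and Ifrd1 by 1.66 ± 0.09, all more than Klf6. Klf7 was most like Pid1 (r = 0.934), Cers6 (r = 0.841), a ceramide synthase gene, and the chemokine gene Ccl4 (r = 0.839). All 3 were lowest at 6 or 9 h and came back by 12 h, with changes from 0 h to 12 h in WT of -0.09 ± 0.07 for Pid1, 0.02 ± 0.06 for Cers6 and 0.21 ± 0.09 for Ccl4. In KO these were -0.13 ± 0.08, -0.04 ± 0.06 and 0.45 ± 0.09, so Ccl4 ended above its 0 h level there (adjusted p = 0.000602).

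**Figure D5:**
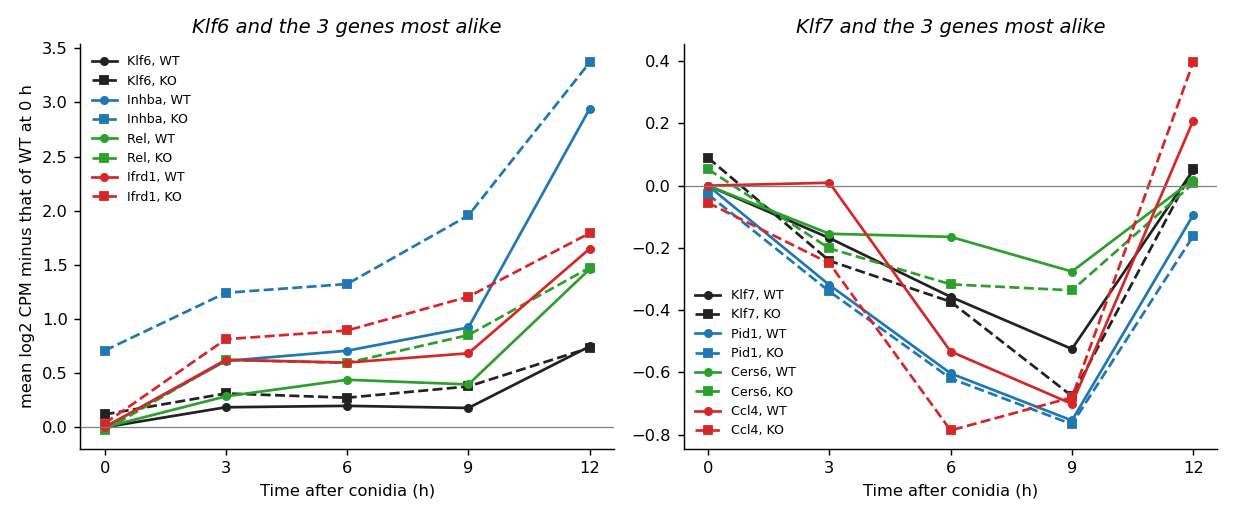
Mean log2 CPM of each group minus that of WT at 0 h, against time in hours, for Klf6 (left, black) and Klf7 (right, black) and the 3 genes most alike in each case (colours), with solid lines for WT and dashed lines for Nlrx1-deficient cells. The left panel shows a plateau and a step at 12 h, largest for Inhba, and the right panel shows a dip and a return.

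Among the other members Klf4 was most like Myo1c (r = 0.857), Noc2l (r = 0.844) and Cct3 (r = 0.816). Klf10 was most like Nfkbia (r = 0.739), the gene of an NF-kappaB inhibitor, Cd200 (r = 0.725) and the proliferation marker Mki67 (r = 0.723). Klf3 was most like Pafah1b2 (r = 0.769), Klf13 like Rhog (r = 0.738) and Klf2 like Rapgef1 (r = 0.721). With Spearman's rho in place of Pearson's r none of the first 3 genes was kept for Klf2, Klf3 or Klf10. Inhba left the first 3 for Klf6, Ccl4 for Klf7, Cct3 for Klf4 and Sympk for Klf13. Among the 21 pairs of members the highest r was that of Klf6 with Klf10, at 0.658 (rho = 0.474), and the lowest was that of Klf4 with Klf6, at -0.481 (rho = -0.519).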

How the data were processed

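Whole-number counts for each Ensembl gene were deposited, and their values show raw counts. The submitters' processing notes name StringTie, HISAT2, DESeq2, Trimmomatic 0.35 and build GRCm38. The sources used here give no order of these steps, annotation release or strand setting, so reads of overlapping genes may be misassigned. The authors' 13 deposited comparison tables give log2 fold changes and p-values, per the file headers, and list only genes with an adjusted p under 0.05 and a log2 change beyond 0.5. Their deposited mean normalized signal was not used, and 0 columns of per-sample values were left out.

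Genes were kept with filterByExpr (minimum count 10), leaving 12393. TMM scaling and a model with 1 coefficient per group over all 30 libraries were fitted with edgeR 4.0.16 (R 4.3.3, robust quasi-likelihood). Two-sided p-values were adjusted with the Benjamini-Hochberg method across the 12393 genes and called under 0.05. CPM are counts per 1000000 of the scaled library total, with a prior count of 2 for logs, and log2 changes carry the SE of the fit. Of the identifiers 54409 had a symbol. The longest run of identical bases between transcripts of any pair of members was 26 (Klf6 and Klf7). On simulated data for WT at 12 h against 0 h, with 11980 genes, 38% of 1.5-fold and 65% of 2-fold changes were recovered. The changed genes were drawn only from those above a floor in CPM, so the shares do not cover genes at the lowest levels. No pair of libraries within a group agreed within sampling noise.

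The members and the gene lists were chosen with earlier results of these data known. All members, Nlrx1, any gene of the lists and the 3 genes most alike to each member could be named. Not every gene of the lists is reported here. Alternatives were DESeq2's size factors in edgeR, DESeq2 1.42.0, no filter on low counts, only the groups compared, a replicate block, and leaving out each library in turn. Promoters are from RefSeq (GRCm38.p6), where Klf10 was not matched. Those of Klf3, Klf7 and Klf13 were searched and not printed.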

Additional observations from a re-analysis of the deposited data

How the results depend on the processing

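Calls over the 8 comparisons with 0 h numbered 15, and 8 with no filter on low counts and 9 with only the groups compared in the fit. The call at single times between genotypes went from 1 to 0 under both of these settings. DESeq2 gave 11 calls over time, 1 of 3 over the average of all times, and 1 in place of 0 for the differences in a consecutive step. The 21 member tests for which DESeq2 gave no adjusted p count as not called. DESeq2's size factors in edgeR changed no member call. Leaving out 1 library at a time gave 11 to 15 calls over time, 4 to 6 over the steps (5 with all libraries), 1 to 2 between genotypes, 2 to 4 for the average, and 0 to 0 for each family of differences between genotypes in the response. Nlrx1 ran from -2.21 to -1.74 in these fits. No direction of a called value turned.

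Calls that held under all alternatives were Klf6 at 9 and 12 h and Klf7 at 9 h in both genotypes, Klf7 at 6 h in KO, Klf10 at 12 h in WT, and the steps of Klf6 and Klf7 from 9 to 12 h. With no filter, and with only the groups compared, the calls lost were Klf6 at 3 h in both genotypes and at 6 h in KO, Klf7 at 6 h in WT and 3 h in KO, and Klf3 at 12 h in KO (adjusted p = 0.0672 and 0.171). The Klf6 call at 6 h in WT (adjusted p = 0.33) and the Klf10 step from 9 to 12 h in WT (adjusted p = 0.336) were also lost with no filter. The Klf6 call at 3 h in WT was lost without any WT library at 0 h or replicate 3 at 3 h, and that in KO without replicate 1 or 3 at 0 or 3 h. The Klf6 call at 6 h in KO was lost without any KO library at 0 h or replicate 2 or 3 at 6 h. With no filter that change was 0.09 (adjusted p = 0.752). The Klf7 call at 6 h in WT was lost without replicate 2 or 3 at 6 h (adjusted p = 0.0767 and 0.0683), and that at 3 h in KO with DESeq2 (adjusted p = 0.103) and without any KO library at 0 h or replicate 2 or 3 at 3 h. The Klf10 step from 9 to 12 h in WT was lost without replicate 2 or 3 at 9 h or 1 or 2 at 12 h. For Klf3 the fall from 9 to 12 h in KO passed only without replicate 2 at 12 h (-0.70, adjusted p = 0.006), as did its difference from WT at 12 h (-0.71, adjusted p = 0.0109). The Klf6 difference at 3 h passed only without replicate 3 of WT at 3 h (adjusted p = 0.0358). The average Klf13 difference was lost (adjusted p up to 0.0766) without any one of these libraries: WT 0 h replicate 1 or 3, WT 3 h replicate 1, WT 6 h replicate 3, WT 9 h replicate 2 or 3, WT 12 h replicate 1, KO 0 h replicate 1, KO 3 h replicate 1, KO 6 h replicate 3, KO 9 h replicate 2 or KO 12 h replicate 3. The causes were not tested. Over all genes, calls were more than 1.5 times fewer in 24 of 28 comparisons with no filter (1486 against 2245 in WT at 12 h, and 71.3% of calls higher against 53.7% in WT at 9 h) and in 18 of 26 with only the groups compared. No filter moved the library scale by at most 0.0845 (log2) in a comparison. That scaling shifted the log2 difference of KO from WT by -0.0825 at 9 h and by -0.0533 on the average over times. Its part in the lost Klf6 calls was not tested.

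The replicate block left 15, 5, 1 and 3 calls over time, steps, genotype and average, and 0 for the differences, and changed no member call. Replicate numbers did not pair the libraries: the median correlation of deviations was 0.014 for the same number and -0.008 for different numbers, and 13 of 30 libraries correlated best with their own number. Klf2, at 10 to 37 counts per library, is the member most limited by depth.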
